A study of Caenorhabditis elegans with 2 samples.

Results

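The proteasome and ubiquitin conjugation genes of Caenorhabditis elegans were described by the peaks of the nuclear hormone receptor NHR-11 at their promoters in L1 larvae, which are newly hatched animals. Members were the protein-coding genes whose symbol starts with pas-, pbs-, rpn-, rpt-, ubc-, uba- or ubq-. There were 59 of them among 19973 nuclear protein-coding genes. The measurements came from chromatin immunoprecipitation and sequencing (ChIP-seq) of whole animals of mixed sex, of strain OP305, with the genotype unc-119(ed3) III; wgIs305. The labels describe an insertion that targets nhr-11, tagged with eGFP, and all animals carried the unc-119 mutation. The labels do not say which promoter drives the tagged protein or in which cells it was present. All libraries belonged to 1 group of 2 biological replicates. With nothing to set the group against, no test was possible and the values below are descriptions.

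The 26S proteasome degrades proteins that carry chains of ubiquitin. Its barrel-shaped core is built from alpha rings (pas- genes) and beta rings (pbs- genes) that hold the proteolytic sites, and its cap is built from a ring of ATPases (rpt- genes) that unfold the substrate and from non-ATPase subunits (rpn- genes) that bind, deubiquitinate and position it. Ubiquitin (ubq- genes) is activated by an E1 enzyme (uba- genes), passed to an E2 conjugating enzyme (ubc- genes) and placed on the substrate with the help of a ligase. In worms, as in other animals, transcription of proteasome subunit genes is raised when the proteasome is impaired, a response that in C. elegans requires SKN-1.

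Each gene was scored by the highest signal value of any candidate peak whose summit lay from 1000 bp upstream to 200 bp downstream of one of its annotated transcript 5′ ends. The signal value was computed by the authors, and its scale is not stated. There were 30000 candidate peaks in each replicate and 28727 in the pool of both. The authors' list of peaks reproducible by IDR (irreproducible discovery rate) held 1141 of the pooled peaks. No pooled candidate outside that list reached its lowest signal, 49.9. A gene with a summit of the list in its window is named called below. Read counts are not part of these lists, so the depth is unknown. In whole larvae, binding in few cells and weak binding in many cannot be told apart.

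A promoter candidate was found in the pool for 46 of the 59 members (78%), where 41.1% of all protein-coding genes had a candidate. A called summit was found for 10 members (16.9%), where 4.79% of all protein-coding genes were called. Among genes with a candidate the shares were 21.7% of the members and 11.6% of all genes. The core had 2 of 14 genes called (14.3%), the cap 3 of 19 (15.8%) and the conjugating enzymes 4 of 21 (19%). The last called member was a ubiquitin gene, ubq-2, and none of the 3 activating enzyme genes was called. As a point of comparison from the same lists, 43 of 78 ribosomal protein genes (55.1%) were called. The counts per group are small, and the groups were not tested against each other.

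The signal of the scored members was also described by group. The median pooled signal of scored members was 29.5 in the core, 35.7 in the cap and 25.4 in the conjugating enzymes, against 21.2 over all 8211 scored genes. Among conjugating enzymes the 4 called genes lay at 55.6 or more. The next gene, ubc-12, lay at 26.9, so no gene fell between these values. These limits were taken from the conjugating enzymes' own scores, so an empty interval in that group was fixed by the choice. Over all 8211 scored genes the limits span rank 803 (ubc-6) to rank 2594 (ubc-12). In the cap 7 genes lay between these values, rpn-2 at 49.2, rpn-9 at 44.5, rpt-1 at 44.1, rpn-12 at 39.4, rpt-2 at 39.1, rpt-5 at 32.3 and rpt-3 at 27.4. In the core 3 genes did, pas-7 at 39.6, pbs-7 at 34.4 and pbs-3 at 32.8.

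**Figure D1:**
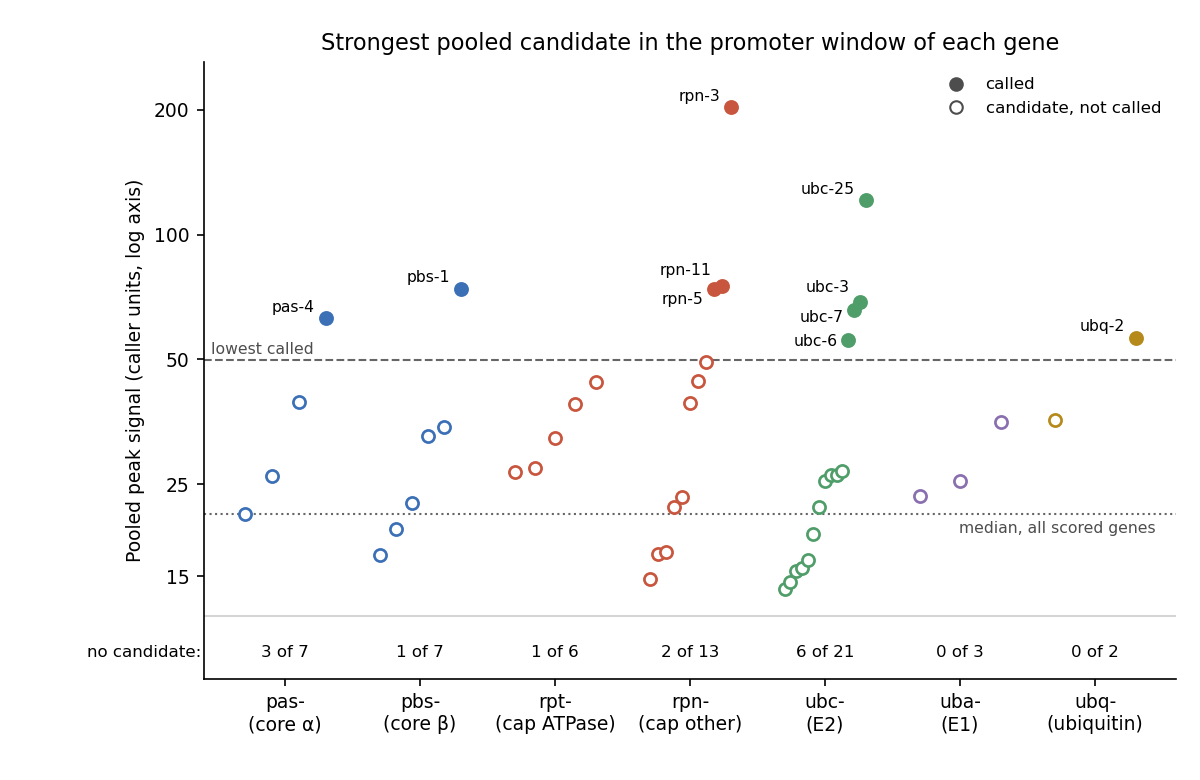
Pooled peak signal (log axis, caller units) of the strongest promoter candidate of each gene, by gene family, with filled points for called genes, and the number of genes without a candidate under each family. The dashed line is the lowest called signal, 49.9, and the dotted line the median of all scored genes, 21.2; rpn-3 at 203 and ubc-25 at 121 stand highest.

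The sequences under the summits are shown for 9 members that carry one of a pair of words. The first 4 are cap genes that hold TGTCAT, part of a sequence that SKN-1 is known to bind, and they are shown because within 50 bp this word was found at cap summits and at no other member summit. They are rpn-11 (chrII:4044505-4044605), rpn-2 (chrIII:6198800-6198900), rpt-2 (chrV:6017759-6017859) and rpn-12 (chrII:11652929-11653029). The other 5 are called genes that hold AGACCC, a word noticed in the printed sequences after their values were known. They are rpn-3 (chrIII:8447141-8447241), rpn-5 (chrII:4698387-4698487), ubc-6 (chrII:7478831-7478931), ubc-7 (chrIII:9631435-9631535) and ubq-2 (chrIII:12978917-12979017). Each run covers 50 bp to either side of the pooled summit, from the RefSeq sequence of WBcel235 (ce11), on the strand of the gene. That is the plus strand for rpn-2, rpn-12, rpn-3 and ubc-6 and the minus strand for the others. Capitals mark each match to TGTCAT, to AGACCC, to GAGAGA or to GACGCA. Matches on the opposite strand appear as the reverse complement, which is ATGACA for the first word and GGGTCT for the second.
rpn-11: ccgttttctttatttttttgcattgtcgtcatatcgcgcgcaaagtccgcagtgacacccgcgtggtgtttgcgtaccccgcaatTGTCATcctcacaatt
rpn-2: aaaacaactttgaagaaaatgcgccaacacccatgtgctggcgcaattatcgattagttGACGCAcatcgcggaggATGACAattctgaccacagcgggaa
rpt-2: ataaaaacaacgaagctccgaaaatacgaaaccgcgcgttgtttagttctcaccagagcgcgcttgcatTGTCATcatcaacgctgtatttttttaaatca
rpn-12: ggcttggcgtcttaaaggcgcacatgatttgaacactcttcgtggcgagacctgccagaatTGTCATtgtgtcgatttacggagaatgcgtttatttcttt
rpn-3: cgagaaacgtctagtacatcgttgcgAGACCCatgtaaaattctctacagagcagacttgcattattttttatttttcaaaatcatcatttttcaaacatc
rpn-5: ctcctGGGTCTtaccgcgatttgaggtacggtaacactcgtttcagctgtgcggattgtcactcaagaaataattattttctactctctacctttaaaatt
ubc-6: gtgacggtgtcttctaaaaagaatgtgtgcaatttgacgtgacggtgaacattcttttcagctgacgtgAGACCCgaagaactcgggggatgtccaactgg
ubc-7: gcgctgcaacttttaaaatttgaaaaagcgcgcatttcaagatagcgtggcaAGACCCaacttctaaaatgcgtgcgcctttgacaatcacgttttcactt
ubq-2: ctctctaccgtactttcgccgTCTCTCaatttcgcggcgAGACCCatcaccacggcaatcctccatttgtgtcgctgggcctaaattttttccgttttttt

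In the 101 bp windows TGTCAT was present at 4 of 46 member summits (8.7%) and at 4.77% of the 7111 best summits of all scored genes. By group it was present at 4 of 16 cap summits and at 0 of 10 core and 0 of 15 conjugating enzyme summits. Within 100 bp of the summit it was present at 5 of 16 cap, 1 of 10 core and 2 of 15 conjugating enzyme summits, against 9.93% of all best summits, so its absence outside the cap held for the narrower window only. In all 4 cap windows of 101 bp the word was part of ATTGTCAT, on either strand. That longer word, looked for after the sequences were seen, occurred in 0.661% of the best summits of all scored genes and 0.424% of the 708 called promoter summits. Of the 4 genes, rpn-11 was called and rpn-2, rpn-12 and rpt-2 were not. Over the whole promoter window of 1201 bp at the 5′-most end of each gene, ATTGTCAT occurred in 6 of 19 cap genes (31.6%), 2 of 14 core genes (14.3%) and 2 of 21 conjugating enzyme genes (9.52%), against 7.43% of all promoters. The shorter TGTCAT occurred in 10 of 19 cap genes (52.6%), 10 of 14 core genes (71.4%) and 10 of 21 conjugating enzyme genes (47.6%), against 47.8% of all promoters. The 6 cap genes with ATTGTCAT include the 4 printed above, on which the word was picked, so the cap share was raised by that choice. The other cap genes with ATTGTCAT were rpt-3 and rpn-1, and the core genes were pas-2 and pbs-1. A match is a description of the letters and was not tested as a binding site.

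AGACCC was present at 6 of 46 member summits (13%), at 6.07% of called promoter summits and at 2.5% of the best summits of all scored genes. It was present at 5 of the 10 called members and 1 of the 36 others, pas-5, a count for a word that was picked on these same sequences. GAGAGA was present at 3 of the 10 called members, ubc-3, ubc-25 and ubq-2, and at 26.3% of all called promoter summits. It was present at 0 of 16 cap summits, at 5 of 46 member summits (10.9%) and at 10.9% of the best summits of all scored genes. GACGCA was present at 4 of 46 member summits (8.7%), among them rpn-2 and rpn-9, and at 6.17% of the best summits of all scored genes. AGGTCA, a sequence recognised by many nuclear receptors, was present at 0 of 46 member summits against 2.35% of all best summits. AAGTCA was present at 4 (8.7%) against 3.81%, and AGTGCA at 5 (10.9%) against 3.71%. CACGTG was present at 0 of 46 against 2.4%, and TATCAT, the other form of the SKN-1 word, at 1 (2.17%) against 6.15%. The GC content of the windows had a median of 48.5% at called members and 38.6% at the other scored members, beside 46.5% at all called promoter summits and 35.6% at all best summits.

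Among the subunits of the core, pas-4 and pbs-1 were called. The gene pas-4 (WBGene00003925, chromosome I 8727218 to 8728487) encodes a subunit of the alpha ring, which gates the entry to the barrel. Its signal was 34.1 in replicate 1, 28.2 in replicate 2 and 62.8 in the pool, with the summit 135 bp upstream of its 5′ end. The beta subunit gene pbs-1 (WBGene00003947, IV 1708814 to 1709745) had 39.7 in replicate 1, 31.0 in replicate 2 and 74.1 in the pool. Both genes stood at a similar place in the replicates. From the top of the scored genes pas-4 stood at 7.93% in replicate 1 and 9.17% in replicate 2, and pbs-1 at 5.96% and 7.68%.

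The other core genes with a candidate lay between 16.9 and 39.6 in the pool. The highest of them was pas-7, with 21.1 in replicate 1, 19.7 in replicate 2 and 39.6 in the pool. Next came pbs-7, which had no candidate in its window in replicate 1, 24.9 in replicate 2 and 34.4 in the pool, and then pbs-3 with 15.2, 15.8 and 32.8. The lowest were pas-3 at 21.2, pbs-2, the beta subunit of the trypsin-like site, at 19.5, and pbs-6 at 16.9, whose summit lay 192 bp downstream of its 5′ end. The genes pas-1, pas-2 and pas-6 and the gene pbs-5, for the subunit of the chymotrypsin-like site, had no pooled candidate in the window, although pas-6 had one of 15.9 in replicate 2. Genes whose proteins sit in the same rings ranged from a called peak to no candidate at all.

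The ATPase genes of the cap were scored in 5 of 6 cases and none was called. Their pooled signals lay close together, from 26.8 for rpt-6 to 44.1 for rpt-1, while rpt-4 had no candidate in the window and one of 24.9 inside the gene, 454 bp from its 5′ end. The replicate signals share no stated scale, so they are given here as values and by rank further on. The signal of rpt-1 was 12.4 in replicate 1 and 30.8 in replicate 2. That of rpt-2 was 18.6 in replicate 1 and 27.7 in replicate 2, that of rpt-3 was 8.69 and 24, and that of rpt-6 was 16.5 and 28.5. For rpt-5 there was no candidate in replicate 1 and one of 20.7 in replicate 2. Its pooled summit lay 537 bp upstream of rpt-5 but 72 bp upstream of rad-8, so that rad-8 was the nearer gene. All 4 genes with a value in both lists had the higher one in replicate 2, although the median signal of the 5138 genes scored in both was 13.1 in replicate 2 and 15.1 in replicate 1. The value of rpt-3 in replicate 1 lay just above the lowest signal of that list, 8.49.

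The strongest member of all was rpn-3 (WBGene00004460, III 8447353 to 8449346), which encodes a subunit of the lid of the cap. It had 102 in replicate 1, 92.8 in replicate 2 and 203 in the pool, and it stood at rank 53 of the 8211 scored genes in the pool and at rank 65 in each replicate. Its peak lay at III 8447085 to 8447267 with the summit 162 bp upstream of rpn-3 and 282 bp upstream of hsp-110, a chaperone gene on the other strand, so the summit fell in the windows of both. The gene rpn-11 encodes the metalloprotease that removes ubiquitin chains from substrates at the cap. It had 32.8 in replicate 1, 38.5 in replicate 2 and 75.2 in the pool, with the summit 9 bp upstream of its 5′ end. The lid subunit gene rpn-5 had 39.7, 34.2 and 73.7, with the summit 10 bp upstream. These were the nearest summits to a 5′ end among the called members.

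Just outside the called set lay rpn-2, which encodes a large scaffold subunit of the base, with 15.9 in replicate 1, 20.2 in replicate 2 and 49.2 in the pool. Among the rpn- genes it was followed by rpn-9, a lid subunit gene, with 14.2, 28.0 and 44.5, and by rpn-12 with 21.2, 21.9 and 39.4. Just inside the called set, over all members, were ubc-6 at 55.6 and ubq-2 at 56.4. The remaining rpn- genes with a candidate had pooled signals from 14.8 to 23.3. They were rpn-1, the other scaffold gene, at 23.3, the lid gene rpn-6.1 at 22.0, rpn-7 at 17 with a summit 952 bp upstream, and the ubiquitin receptor genes rpn-13 at 17.1 and rpn-10 at 14.8. The genes rpn-8 and rpn-6.2 had no pooled candidate, and rpn-6.2 had one of 11.1 in replicate 2.

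The called conjugating enzyme genes were ubc-25, ubc-3, ubc-7 and ubc-6. The gene ubc-25 (WBGene00006720, I 10562970 to 10564903), whose product belongs to the UBE2Q family, had 65.5 in replicate 1, 57.1 in replicate 2 and 121 in the pool, which placed it at rank 211 of the scored genes. The gene ubc-3, the relative of CDC34 that works with cullin ligases, had 44.0 in replicate 1, 22.6 in replicate 2 and 68.7 in the pool. The genes ubc-7 and ubc-6 are related to the yeast enzymes of degradation at the endoplasmic reticulum. The values were 32.6, 32.2 and 65.9 for ubc-7, and 28.2, 24.2 and 55.6 for ubc-6. The summits of these 4 genes lay in a narrow range, 305 to 324 bp upstream.

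The other conjugating enzyme genes with a candidate lay from 14 for ubc-17 to 26.9 for ubc-12, the conjugating enzyme of NEDD8. The lowest values after ubc-17 were those of ubc-23 at 14.5 and of ubc-9, the conjugating enzyme of SUMO, at 15.4. The RAD6 relative ubc-1 had 22.3 in replicate 1, no candidate in replicate 2 and 22.1 in the pool. The genes ubc-13, whose product builds lysine-63 chains in other species, ubc-21, ubc-22 and ubc-26 had no candidate in any list, and ubc-16 and ubc-24 had one in replicate 2 alone. Of the 9 members absent from all 3 lists, 4 were conjugating enzyme genes, and the others were pas-1, pas-2, pbs-5, rpn-8 and rpt-4.

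The activating enzyme genes all had a candidate and none was called. The values in replicate 1, replicate 2 and the pool were 18.9, 10.8 and 25.5 for uba-1, the activating enzyme of ubiquitin, 11.7, 15.5 and 23.4 for uba-2, a subunit of the SUMO activating enzyme, and 19.98, 13.7 and 35.3 for uba-5, the activating enzyme of UFM1. Of the ubiquitin genes, ubq-2, which encodes ubiquitin fused to a ribosomal protein, had 29.96, 29.6 and 56.4. Its summit lay 444 bp upstream of ubq-2 but 195 bp upstream of frg-1, so that frg-1 was the nearer gene. The polyubiquitin gene ubq-1 had 26.7, 18.7 and 35.8, with the pooled summit 522 bp upstream. Replicate 2 had no candidate at that summit, and its value for ubq-1 came from another peak.

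The replicates placed the groups differently. When the 1141 strongest candidates of a single replicate took the place of the called list, the cap had 7 of 19 genes (36.8%) in replicate 2 and 3 of 19 (15.8%) in replicate 1. The core had 2 of 14 in each, and the conjugating enzymes 2 of 21 in replicate 2 and 3 of 21 in replicate 1. Over all protein-coding genes the shares were 4.57% in replicate 2 and 4.67% in replicate 1. The 4 members that replicate 2 added to the called ones were rpt-1, rpt-2, rpt-6 and rpn-9, and replicate 1 added none. It lost ubc-6, and replicate 2 lost ubc-3 and ubc-6. The lowest signal among these strongest candidates was 28.4 in replicate 1 and 26.2 in replicate 2.

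**Figure D2:**
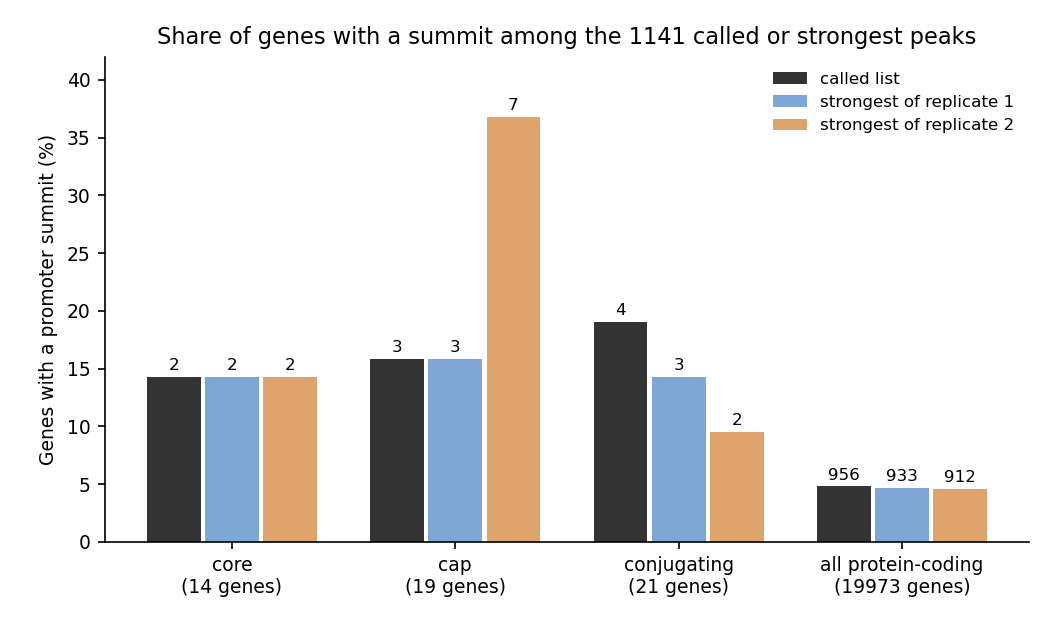
Share of genes (%) with a promoter summit among the 1141 called peaks or the 1141 strongest candidates of each replicate, for the core, the cap, the conjugating enzymes and all protein-coding genes, with the number of genes above each bar. The cap reaches 36.8% (7 of 19) with replicate 2 and 15.8% (3 of 19) with the called list and with replicate 1.

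The same was seen in the order of the genes. Among the members with a score in both replicates, 10 of 12 cap genes stood nearer the top in replicate 2 and rpn-3 had the same rank in both, where 50.3% of 5138 genes stood nearer the top in replicate 2 overall. The cap genes had a median position of 9.42% from the top in replicate 2 and 33% in replicate 1. The largest shift was that of rpt-3, at 12.4% in replicate 2 and 97.4% in replicate 1, followed by rpt-1 at 7.75% and 56.5%. Next came pas-3 at 31.3% and 76.8%, and ubc-19 at 31.2% and 74.4%. The opposite shift was largest for pbs-2, at 89.2% in replicate 2 and 52.3% in replicate 1, and for uba-1 at 55.5% and 23.8%. The strongest summit was at a different place in each replicate for pas-3, ubc-19, pbs-2 and uba-1, and at the pooled summit replicate 1 had no candidate for ubc-19 and replicate 2 none for pbs-2 and uba-1. The values of these 4 genes therefore compare different peaks. So do those of ubq-1 and of rpn-13, which is among the 10 cap genes counted above. For both, replicate 2 had no candidate at the pooled summit. Among the cap genes rpn-5 stood nearer the top in replicate 1, at 6.37% in replicate 2 and 5.99% in replicate 1. Core genes stood nearer the top in replicate 2 in 3 of 7 cases, conjugating enzyme genes in 2 of 7, and ribosomal protein genes in 28 of 65 (43.1%). The candidates that overlap the pooled summit were also compared by their place in each list, a choice made with these values in view. By this measure 9 of 11 cap genes stood higher in replicate 2 (81.8%) and 49.2% of all genes did. The core then had 3 of 5 and the conjugating enzymes 1 of 6. The cause was not tested.

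**Figure D3:**
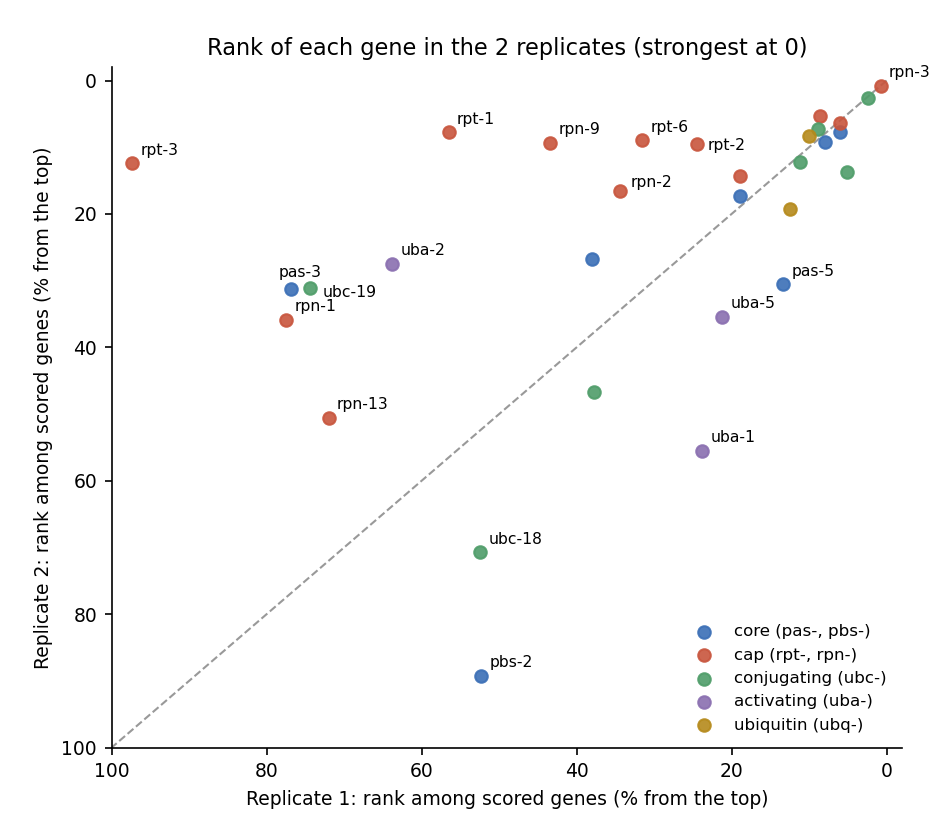
Position of each member among the scored genes of replicate 1 (x axis) and replicate 2 (y axis), in percent from the top, so that the strongest genes lie at the upper right; colours are the gene groups and the dashed line marks equal position. Of 12 cap genes 10 lie above the line, with rpt-3 farthest from it, and rpn-3, at rank 65 in both, lies at the upper right end of the line.

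Most summits lay upstream of the nearest 5′ end. Of the 46 scored members 41 (89.1%) had the best summit there, as did 88.4% of all scored genes. For 3 of the 41, rpn-6.1, uba-1 and uba-5, that end was an internal one and the summit lay inside the gene. It lay within 400 bp upstream for 32 members (69.6%) against 48.5% of all scored genes, and for 9 of the 10 called members against 70.5% of all called genes. The median distance was 141 bp upstream in the core, 277 bp in the cap and 274 bp in the conjugating enzymes, and 302 bp over all scored genes. The farthest summits were those of rpn-7 at 952 bp, rpn-1 at 863 bp and rpt-6 at 709 bp upstream, all in the cap. The summit of rpn-1 lay 93 bp downstream of the 5′ end of ribo-1, and that of rpt-6 lay nearly as far from the histone gene his-72, 697 bp upstream of it.

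**Figure D4:**
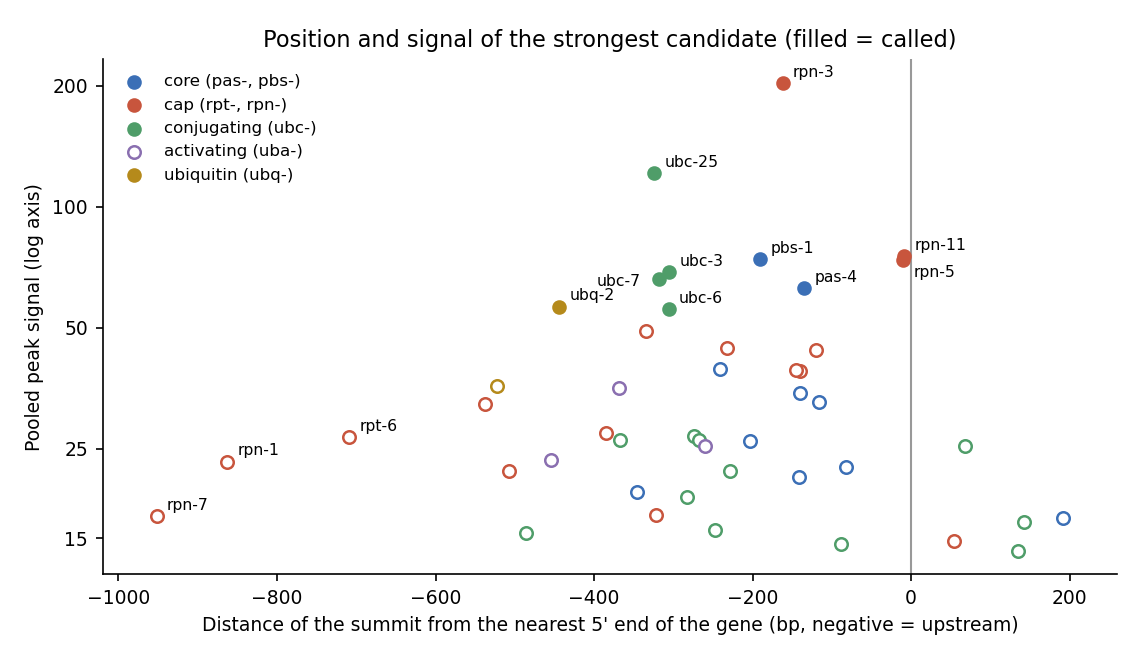
Distance of the strongest pooled summit from the nearest 5′ end of the gene (bp, negative values upstream) and its pooled signal (log axis) for the 46 scored members, coloured by group, with filled points for called genes. All 10 called summits lie upstream, from 9 bp for rpn-11 to 444 bp for ubq-2.

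A summit in the promoter window of a member could also belong to a neighbour. For 25 of the 46 scored members the best summit lay in the window of another protein-coding gene as well, and for 10 of them the neighbour's 5′ end was nearer. Among the called members 6 shared the summit, and for 9 of the 10 the member was nearer than any other gene. Besides rpn-3 with hsp-110 and ubq-2 with frg-1 these were pas-4 with rpb-3, a subunit gene of RNA polymerase II, at 142 bp, pbs-1 with K08D12.3, rpn-5 with the cohesin gene scc-1 at 284 bp, and ubc-6 with aka-1 at 344 bp. The called summits of rpn-11, ubc-3, ubc-7 and ubc-25 lay in the window of no other protein-coding gene. When a summit went to the nearest 5′ end alone, 9 of the 10 called members stayed called. Over all protein-coding genes 697 stayed called, of 956. How often summits are shared over all genes was not counted, so the counts of shared summits have no background. Below the called set, rpn-12 shared its summit with rad-23, which encodes a shuttle factor that carries ubiquitinated proteins to the proteasome; it lay 145 bp upstream of rpn-12 and 250 bp upstream of rad-23.

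Worm genes are often transcribed in operons, where downstream genes often have no promoter of their own. Operon annotation was not used here, and the distance to the next protein-coding gene upstream on the same strand was taken as a description. For 15 of the 59 members this gap was 500 bp or less, and 1 of the 15 was called (6.67%), rpn-11, against 9 of the other 44 (20.5%). Over all protein-coding genes 3.57% were called where the gap was 500 bp or less and 5.06% where it was larger. A pooled candidate was found for 11 of the 15 members with the short gap (73.3%) and for 35 of the other 44 (79.5%). Over all protein-coding genes these shares were 38.6% and 41.7%. Some members without a candidate sit in such runs. The gene pas-1 follows rpoa-12 at 106 bp, in a run that starts with rrsr-1, whose promoter window held a called summit of 50.6. The gene pbs-5 follows K05C4.2 at 110 bp, where the candidate had 35.2. The genes pas-2 and rpn-8 stand 1777 bp and 8262 bp from such a neighbour and had no candidate either.

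By chromosome, members were called on I (3 of 17), II (3 of 11), III (3 of 13) and IV (1 of 8), while none of 6 on V and none of 4 on X was called. Over all protein-coding genes the share called was 6.18% on I, 4.87% on II, 7.01% on III, 4.51% on IV, 3.68% on V and 3.41% on X.

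The other genes of the pathway were followed in 6 lists with 129 genes found in the annotation, of which 17 were called (13.2%), where 4.79% of all protein-coding genes were called. The share was lowest in cullin ligase subunits (8%), and the counts per list are small. The shuttle factors and proteasome regulators had 3 of 20 called. They were the ATPase gene cdc-48.1, with 363 in replicate 1, 319 in replicate 2 and 681 in the pool, the ubiquilin gene ubql-1 with 189 in the pool, and ufd-3 with 166. Ligases outside the cullin and anaphase promoting families had 5 of 26 called, with wwp-1 at 193, marc-6, a ligase of the endoplasmic reticulum, at 171, prp-19 at 105 and eel-1 at 99.0 as the strongest. Deubiquitinases had 3 of 23, with otub-2 at 99.8, usp-39 at 76.7 and usp-4 at 59.5. The anaphase promoting complex had 2 of 14, emb-1 at 105 and gfi-3 at 54.8. The summit of emb-1 is the same as that of prp-19, so this peak enters the 17 for both genes. It also fell in the window of K10D2.5. Cullin ligase subunits had 2 of 25, cul-3 at 59.8 and sel-10 at 52.6. Ubiquitin-like conjugation had 2 of 21, the autophagy genes lgg-2 at 254 and lgg-1 at 93.7.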

How the data were processed

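Per the labels, the 2 libraries were ChIP-seq of whole L1 larvae from DNA fragments of 150 to 350 bp. The deposited ce11 narrowPeak lists were used: candidates of replicate 1, replicate 2 and the pool, and the IDR-thresholded list. The deposited score of each peak (its signal value, column 7) is the authors' own. The sources used here do not name its scale, the aligner, the peak caller or the threshold on IDR, and the extraction protocol is blank. A control entered the peak calls, per the deposited notes, and was not analysed here. The 4 ce10 lists were not used. Candidate lists reach down to weak peaks, with lowest deposited scores of 8.49 in replicate 1, 7.14 in replicate 2 and 13.6 in the pool, so a candidate alone may be a weak peak, and a gene without one has an unknown lower signal.

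Genes and 5′ ends came from protein-coding transcripts of Ensembl 115, whose assembly WBcel235 corresponds to ce11. All peaks lay within its chromosome lengths. Mitochondrial genes were left out. Positions from the top are ranks of a gene's score divided by the number of scored genes in that list. Since replicate scores share no stated scale, replicates were compared by rank, with equal ranks counted for neither, and raw values are given as a description. Sequence words were matched to either strand of the 50 bp at each side of a summit, 8 of them from the list used throughout and 2 added after the sequences were seen.

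The members, groups, lists and naming rule were chosen with earlier results of these data known. The rule named every called member, every member without a candidate, the 3 highest and 3 lowest in each group, those with the largest shifts between replicates, and up to 4 called genes of each other list, where 129 of 130 symbols were matched. The values of 1 further list are not reported here and are in no count. Further names are neighbours or fill counts and were chosen after their values were seen. Alternatives were other windows, any overlap of peak and window, the nearest gene alone, the stronger 570 called peaks, a wider word window and each replicate alone. No test was run, since 1 group of 2 replicates allows none. The assignment of summits to genes was tested on simulated peaks. Python 3.11.15 was used with numpy 2.4.6, pandas 2.3.3 and matplotlib 3.10.9.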

Additional observations from a re-analysis of the deposited data

How the results depend on the processing

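The count of 10 called members was 10 with a window of 500 bp upstream and 0 bp downstream, 11 with 2000 bp and 500 bp, 10 with any overlap of peak and window, and 9 when a summit went to the nearest 5′ end alone. Over all protein-coding genes the shares called in these settings were 3.78%, 6.25%, 5.07% and 3.49%, beside 4.79% in the main setting. A steady member count therefore stands beside a share of all genes that moved. With the stronger 570 called peaks the count of called members was 3 (rpn-3, rpn-11 and ubc-25), with 0 in the core, 2 in the cap and 1 in the conjugating enzymes, where 2.5% of all genes were called. Leaving out a replicate gave 9 to 12 members, 2 to 2 core genes, 3 to 7 cap genes and 2 to 3 conjugating enzyme genes. The cap count was 7 without replicate 1, where rpt-1, rpt-2, rpt-6 and rpn-9 were added, and the conjugating count 2. The median position of scored members was 31.7% from the top in the pool, 18.4% without replicate 1 and 28.0% without replicate 2. These medians cover different sets of 46, 40 and 38 scored members, so they are not directly comparable. Members with a candidate numbered 36 to 50 across the windows and assignment rules, against 46. The share of all genes with a candidate is not given for these settings, so the range has no background.

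Within 100 bp of the summit in place of 50 bp, the number of the 46 member windows with the word was 9 for GAGAGA, 7 for GACGCA, 8 for TGTCAT, 3 for TATCAT, 1 for AGGTCA, 8 for AAGTCA, 8 for AGTGCA and 1 for CACGTG. The added words moved less, with 6 windows for AGACCC and 5 for ATTGTCAT. A wider window holds more sequence. No paired analysis was possible because there is 1 group. Depth is unknown, so what limits weak candidates cannot be given.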
